A study of Mus musculus with 12 samples.

Results

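Myeloid progenitors of old mice of genotype Mx+ Wt1 fl/+, with 1 floxed Wt1 allele (old het), were set against those of young mice of the same genotype (young het), so that only the age and condition label differs between them. The comparison takes 6 of the 12 libraries of the series, 3 old het and 3 young het, and the 10604 of 33924 listed genes that passed a filter on low counts. All mice were Mx+, and the other 6 libraries, from old and young Mx+ Wt1+/+ mice (controls), entered the same fit and are used for comparison. Cells were sorted from bone marrow as live cells that lack lineage markers and Sca1 and carry c-Kit, and their RNA was read with a 3' mRNA kit, in which a count stands for a read near the end of a transcript.

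The labels give the old samples as "old chronic" and the young as "young acute" and give no ages, so age and that condition cannot be told apart. Mx+ usually names the interferon-inducible Mx1-Cre driver, which acts in blood cells and also outside them; neither the induction schedule nor the time after deletion is stated in the labels. Wt1, the zinc finger transcription factor targeted, was counted 3, 2 and 4 times in old hets 1 to 3 and 7, 4 and 23 times in young hets 1 to 3. That is too few to test, and 3' tags do not tell the floxed from the intact allele. The labels do not say that replicates were separate animals, so the p-values measure the spread between these samples, which may be partly technical.

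Markers of the sort gate were present. Kit was at 194 ± 73 CPM (counts scaled to the library total over all genes, mean ± SD, n = 3) in old hets and 127 ± 33 in young hets, and Cd34 at 488 ± 137 and 463 ± 106. Sca1 (Ly6a) had 1 count in 1 old het and none elsewhere, and the T cell gene Cd3e and the neutrophil surface gene Ly6g had 0 counts in all 6 libraries. Cells of this gate feed the granulocyte, monocyte, erythroid, megakaryocyte, basophil and eosinophil lines. Wt1 is expressed in early progenitors, lies lower in maturing blood cells and is recurrently mutated in acute myeloid leukaemia; its protein has been linked to the DNA demethylase Tet2.

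Old het libraries were shallower, with total counts of 1264603, 2303346 and 1542185 against 3113183, 6794892 and 5820076 in the young hets. A count of 3, taken as the floor of detection, stands for 1.30 to 2.37 CPM in the old and 0.442 to 0.964 CPM in the young libraries. Old het 2 stood apart: mitochondrial genome transcripts summed to 17821 CPM there, against 68766 and 61251 in old hets 1 and 3 and 45677 to 50327 in the young hets. Old hets 2 and 3 carried Y-linked transcripts and no Xist, while old het 1 and all 3 young hets carried Xist and no Y-linked transcript, so sex is uneven between the groups.

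The promoters of 5 genes on which the results turn are shown with the 250 bases before their transcription start, 5′ to 3′ on the gene's own strand, from RefSeq on build GRCm38.p6. They stand for 3 of the gene groups described: immediate early genes (Fos, Zfp36, Dusp1), erythroid genes (Epor) and late granule genes (Ngp). Fos is at chr12:85473640-85473889 (plus strand), Zfp36 at chr7:28379229-28379478 (minus), Dusp1 at chr17:26508473-26508722 (minus), Epor at chr9:21963577-21963826 (minus) and Ngp at chr9:110419558-110419807 (plus). Capitals mark a match to a motif searched on both strands: for the first 3 genes the CArG box of serum response factor, the cyclic AMP response element (TGACGTCA) and the AP-1 site (TGANTCA). For Epor the site of erythroid zinc finger factors was searched (AGATAA), and for Ngp that of C/EBP factors (TTGCNNAA).
Fos: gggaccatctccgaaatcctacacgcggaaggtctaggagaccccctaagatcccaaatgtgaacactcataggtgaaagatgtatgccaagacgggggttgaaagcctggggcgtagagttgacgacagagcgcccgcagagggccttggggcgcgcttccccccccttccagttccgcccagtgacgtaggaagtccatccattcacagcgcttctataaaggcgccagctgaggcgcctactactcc
Zfp36: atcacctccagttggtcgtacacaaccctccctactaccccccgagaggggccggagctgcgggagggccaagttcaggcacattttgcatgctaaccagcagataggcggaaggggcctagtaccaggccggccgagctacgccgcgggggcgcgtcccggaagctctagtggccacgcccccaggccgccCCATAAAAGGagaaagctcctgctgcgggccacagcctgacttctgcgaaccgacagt
Dusp1: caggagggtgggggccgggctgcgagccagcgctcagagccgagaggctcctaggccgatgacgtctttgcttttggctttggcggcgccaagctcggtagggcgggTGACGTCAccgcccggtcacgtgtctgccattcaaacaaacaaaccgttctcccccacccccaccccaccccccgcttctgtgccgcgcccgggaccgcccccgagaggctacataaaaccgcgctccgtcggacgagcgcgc
Epor: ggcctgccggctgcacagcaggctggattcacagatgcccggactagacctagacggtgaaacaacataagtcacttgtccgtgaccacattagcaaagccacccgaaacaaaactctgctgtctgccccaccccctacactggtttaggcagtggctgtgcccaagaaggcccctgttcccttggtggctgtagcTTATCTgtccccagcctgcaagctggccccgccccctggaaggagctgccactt
Ngp: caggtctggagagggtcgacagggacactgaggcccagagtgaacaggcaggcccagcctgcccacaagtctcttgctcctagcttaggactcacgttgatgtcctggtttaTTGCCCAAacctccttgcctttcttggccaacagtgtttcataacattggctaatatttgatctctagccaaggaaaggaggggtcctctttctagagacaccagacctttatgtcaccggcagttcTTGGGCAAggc
The Zfp36 window held a CArG box starting 58 bases before the start, and the Dusp1 window TGACGTCA starting 143 bases before it. The Epor window held AGATAA on the other strand, printed as TTATCT, 54 bases before the start, and the Ngp window held TTGCNNAA at 138 and 11 bases, the second on the other strand. None of the 3 motifs had a match in the Fos window, which says only that these letters are not in it. Among all 32851 promoter entries, 1.47% held the CArG box, 1.55% TGACGTCA, 6.75% TGANTCA, 9.99% AGATAA and 9.56% TTGCNNAA. A match is a description of the letters and shows no binding.

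Fos was the only gene past the adjusted threshold between old and young het progenitors in the edgeR fit. It encodes a subunit of AP-1, a dimeric transcription factor whose immediate early genes are transcribed within minutes of growth factor, cytokine or stress signals. Fos stood at 2.43, 4.81 and 3.94 CPM in old hets 1 to 3 and at 35.6, 70.3 and 67.7 CPM in young hets 1 to 3. Old het 1 lay at its floor of detection of 3 counts, which is 2.37 CPM when taken over the unscaled total of all genes. The floors of old hets 2 and 3, taken the same way, were 1.30 and 1.95 CPM. The old het values thus rest on few counts. All old het values lay below all young het values, and the mean was 3.73 ± 1.21 CPM against 57.9 ± 19.3. On the log2 scale Fos fell by 3.90 (SE 0.59, 95% interval -5.13 to -2.68, adjusted p = 0.0176 in the edgeR quasi-likelihood test over 10604 genes). It was 1 of 10604 genes past the threshold of 0.05 (0.00943%), and no gene passed in the other direction. The call rested on most libraries: it was lost without old het 2 (adjusted p = 0.151), old het 3 (0.112), young het 2 (0.130) or young het 3 (0.0828), each with a log2 change of -3.74 or further from 0. With Xist as a covariate the change was -3.36 (adjusted p = 0.949). With old het 1, at its floor, as the sole old het it was -4.56.

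**Figure D1:**
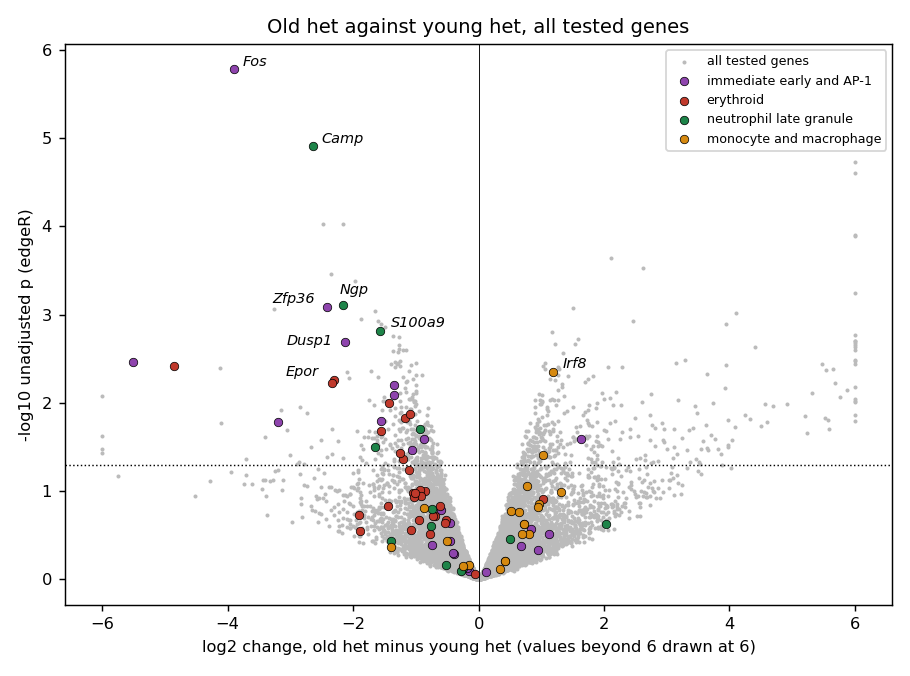
Change between old het and young het progenitors for the 10604 tested genes. The x axis is the log2 change (old minus young) and the y axis -log10 of the unadjusted p in edgeR; grey points are all genes, coloured points are members of 4 gene lists, and the dotted line is an unadjusted p of 0.05. Fos, at -3.90, is the one gene with an adjusted p under 0.05, and most coloured points above the line are on the lower side.

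At an unadjusted p under 0.05, 666 genes were reached (6.28%), 345 higher in old hets (3.25%) and 321 lower (3.03%). The 3 old het libraries did not overlap the 3 young het libraries in 1488 genes (14%), 751 higher (7.08%) and 737 lower (6.95%). The median gene had a log2 change of 0.01, and the 2 directions were nearly even, with 50.6% of genes higher by sign and 49.4% lower. DESeq2 called 15 genes on the same counts, 7 higher and 8 lower, and limma-voom called 1, the granule gene Camp. On 1 set of simulated counts of this design, DESeq2 made 22 false calls, and edgeR and limma-voom made 1 each. The counts were drawn with the dispersions of the edgeR fit, and groups differed only by the genes set to change in old hets. The simulation therefore cannot show which of the 15 calls in the data are false. There, edgeR found 5.97% of the genes set to change 2-fold. Its recovery was 44.8% for 4-fold and 63.6% for 8-fold changes.

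Few genes were measured precisely enough to bound the change. The median 95% interval reached 1.18 log2 units to each side of its estimate, and the interval lay within 1 log2 unit of 0 for 1335 genes (12.6%). For 4193 genes (39.5%) it reached beyond 2 log2 units on at least 1 side. A gene below the threshold is therefore reported by its values and interval, and its change is not called.

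Immediate early genes leaned to lower levels in old hets, among 49 gene lists examined. By sign 18 of 25 tested members were lower and 7 higher. Of the 25, 10 were lower in old hets and 1 higher at an unadjusted p under 0.05, against 3.03% and 3.25% of all genes, and 11 were lower and 1 higher without overlap, against 6.95% and 7.08%. Their median log2 change was -0.46, beside 0.01 for all genes, and their summed level was 932 to 1108 CPM in old hets and 1568 to 2552 in young hets. Fos alone passed the adjusted threshold in edgeR and in DESeq2, and no member passed in limma-voom.

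Among the AP-1 subunits, Fosb had 2 counts in the 3 old hets together and 355 in the young hets. Its levels were 1.62, 0 and 0 CPM in old hets and 8.06, 17.6 and 36.5 CPM in young hets, which do not overlap. The ratio of young to old was 60.2, with a counting interval of 16.5 to 499 (adjusted p = 0.584 in edgeR). Jund was at 115, 38.1 and 66.3 CPM against 195, 152 and 208 (log2 change -1.35, SE 0.44, adjusted p = 0.646). For Junb the libraries read 97, 58.1 and 75.5 CPM against 112, 235 and 236 (-1.34, SE 0.46, adjusted p = 0.675). Jun itself was nearer, at 132, 77.8 and 120 CPM against 162, 235 and 289 (-1.06, SE 0.47, adjusted p = 0.736). All 4 subunits were lower in each old het than in any young het, and none passed the test.

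Of the further genes given here, all but Dusp5 were lower in old hets, while 7 of the 25 tested members of the list were higher by sign. Zfp36, which encodes tristetraprolin, a protein that binds AU-rich elements and speeds the decay of cytokine mRNAs, was at 149, 80.6 and 111 CPM in old hets and 235, 672 and 908 in young hets. Its log2 change was -2.42 (SE 0.62, 95% interval -3.71 to -1.14, adjusted p = 0.528). Dusp1, a phosphatase that switches off MAP kinases, was at 11.3, 13.2 and 14.4 CPM against 45, 70.3 and 56.9 (-2.14, SE 0.60, adjusted p = 0.584). Ier3, a stress-response gene, was at 13.7, 30.1 and 26.9 CPM against 42, 64 and 105 (-1.56, SE 0.60, adjusted p = 0.723). The transcription factor Klf2 was at 2.43, 4.41 and 1.97 CPM against 30.9, 32.7 and 21.1 (-3.20, SE 1.22, adjusted p = 0.723). In old hets 1 and 3 Klf2 lay at the floor of 3 counts, 2.37 and 1.95 CPM, so the size of its change rests on few counts. The small GTPase gene Rhob was at 63.7 ± 18.7 CPM against 116 ± 8.61 (-0.87, SE 0.36). Dusp5, a nuclear phosphatase that acts on ERK, was the one member higher at an unadjusted p under 0.05, at 38, 15.6 and 31.5 CPM in old hets and 8.06, 12.9 and 6.14 in young hets (1.63, SE 0.68, adjusted p = 0.723).

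**Figure D2:**
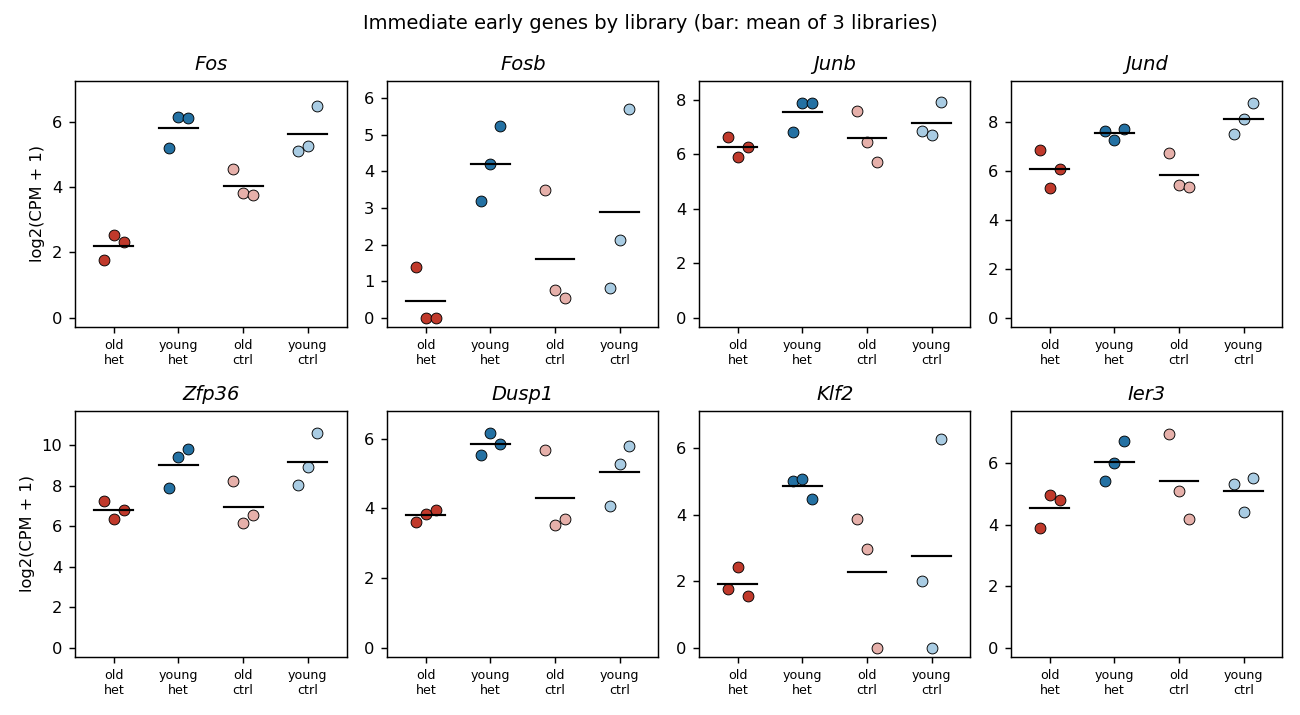
Levels of immediate early genes in every library of the 4 groups, as log2(CPM + 1), 1 panel a gene. Points are libraries and bars are means of 3 libraries. The old het points for Fos (2.43 to 4.81 CPM) lie under every young het point (35.6 to 70.3 CPM). The old control points for Fos also lie under every young control point.

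Of the 22 tested immediate early members with a promoter entry, 2 held the CArG box, 2 TGACGTCA and 1 TGANTCA. Of 18 erythroid members with an entry, 4 held AGATAA, as did 4 of 14 late granule members and 1 of 22 immediate early members. These are counts of genes with a match in any entry, while the shares of all promoters given above are per entry. Stress genes of other classes were also read. Of 26 tested heat shock and proteostasis genes 1 was lower and none was higher at an unadjusted p under 0.05, against 3.03% and 3.25% of all genes (median -0.08). That member was the co-chaperone gene Bag3, at 28.3, 24.4 and 16.4 CPM in old hets and 60.1, 36.9 and 67.3 in young hets (-1.25, SE 0.44, adjusted p = 0.675). Of 14 NF-kB and cytokine genes 1 was lower and none was higher (median -0.18). Whether their level bears on the immediate early genes was not tested.

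Erythroid genes lay lower in old hets as a group. By sign, 28 of 29 tested members were lower, against 49.4% of all genes, and 9 were lower and none was higher at an unadjusted p under 0.05, against 3.03% and 3.25%. The groups did not overlap for 12 lower members and 1 higher one, against 6.95% and 7.08% of all genes. Their median log2 change was -1.04, and their summed level was 2289, 1918 and 1221 CPM in old hets 1 to 3 and 2644, 3518 and 4084 in young hets 1 to 3. No member passed the adjusted threshold in edgeR, DESeq2 or limma-voom. In sorted bulk RNA, fewer cells of a type and less RNA per cell cannot be told apart, here and for every lineage list that follows.

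Epor, the receptor through which erythropoietin keeps erythroid progenitors alive, was at 13.7, 1.60 and 4.60 CPM in old hets and 24.2, 39.9 and 29.8 in young hets (-2.31, SE 0.74, 95% interval -3.85 to -0.76, adjusted p = 0.615). Every old het lay below every young het. Gata1, the transcription factor that directs erythroid and megakaryocyte development, was at 65.5, 66.9 and 36.1 CPM against 88.7, 93.1 and 200 (-1.18, SE 0.44, adjusted p = 0.723). Klf1, which acts beside Gata1 at globin and membrane genes, overlapped between the groups at 45.3, 52.9 and 20.4 CPM against 35.6, 116 and 122 (-1.20, SE 0.56). Tfrc, the transferrin receptor for iron uptake, read 208, 219 and 123 CPM against 319, 374 and 481 (-1.09, SE 0.40, adjusted p = 0.713).

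Genes of the red cell membrane and of globin reach their highest levels late in erythroid maturation. Slc4a1, the anion exchanger band 3, had 2 counts in the 3 old hets and 211 in the young hets, a ratio of young to old of 35.8 (counting interval 9.78 to 297). Its levels were 0.809, 0.401 and 0 CPM against 5.71, 17.6 and 13.1. Rhag, the Rh-associated glycoprotein, was at 31.5, 12 and 17.1 CPM against 65.5, 49.1 and 45.9 (-1.42, SE 0.50, adjusted p = 0.675), and Cldn13, a claudin of mouse erythroid precursors, at 29 ± 9.9 CPM against 69.3 ± 14.3 (-1.26, SE 0.56). Epb4.9, dematin of the membrane skeleton, is not on the list and was chosen after its values were seen. It was at 17, 7.21 and 9.85 CPM against 39.3, 47.1 and 84.6 (-2.36, SE 0.55, adjusted p = 0.338) and was called by DESeq2. The globin gene Hbb-b2 was at 183, 45.7 and 19.7 CPM against 250, 247 and 228 (-1.56, SE 0.62, adjusted p = 0.723). Hba-a1 was at 12.9, 4.81 and 1.97 CPM against 62.5, 20.4 and 14.7 (-2.33, SE 0.76). Both globins have near-identical copies between which reads may have been split, so their values are uncertain.

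Haem synthesis, which supplies globin, had 14 tested genes, of which 5 were lower and 1 higher at an unadjusted p under 0.05, against 3.03% and 3.25% of all genes (median -0.72). By sign 12 were lower and 2 higher, with changes from -1.33 to 1.81. Their summed level overlapped, at 628 to 878 CPM in old hets and 849 to 1883 in young hets. Alad, the enzyme that joins aminolevulinate into porphobilinogen, was at 84.9, 68.1 and 110 CPM in old hets and 177, 177 and 250 in young hets. The old hets lay lower without overlap (-1.20, SE 0.35, 95% interval -1.93 to -0.48, adjusted p = 0.584). The later enzyme Urod was at 22.6, 34.1 and 14.4 CPM against 40.3, 57.8 and 73.1 (-1.26, SE 0.46), and Cpox at 140, 137 and 60.4 CPM against 166, 224 and 321 (-1.07, SE 0.43). The mitochondrial iron importer Slc25a37 overlapped, at 146, 308 and 250 CPM against 254, 660 and 864 (-1.33, SE 0.40, adjusted p = 0.584). Abcb6, a porphyrin transporter, was at 16.6 ± 3.99 CPM against 36.3 ± 11.8 (-1.12, SE 0.51).

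**Figure D3:**
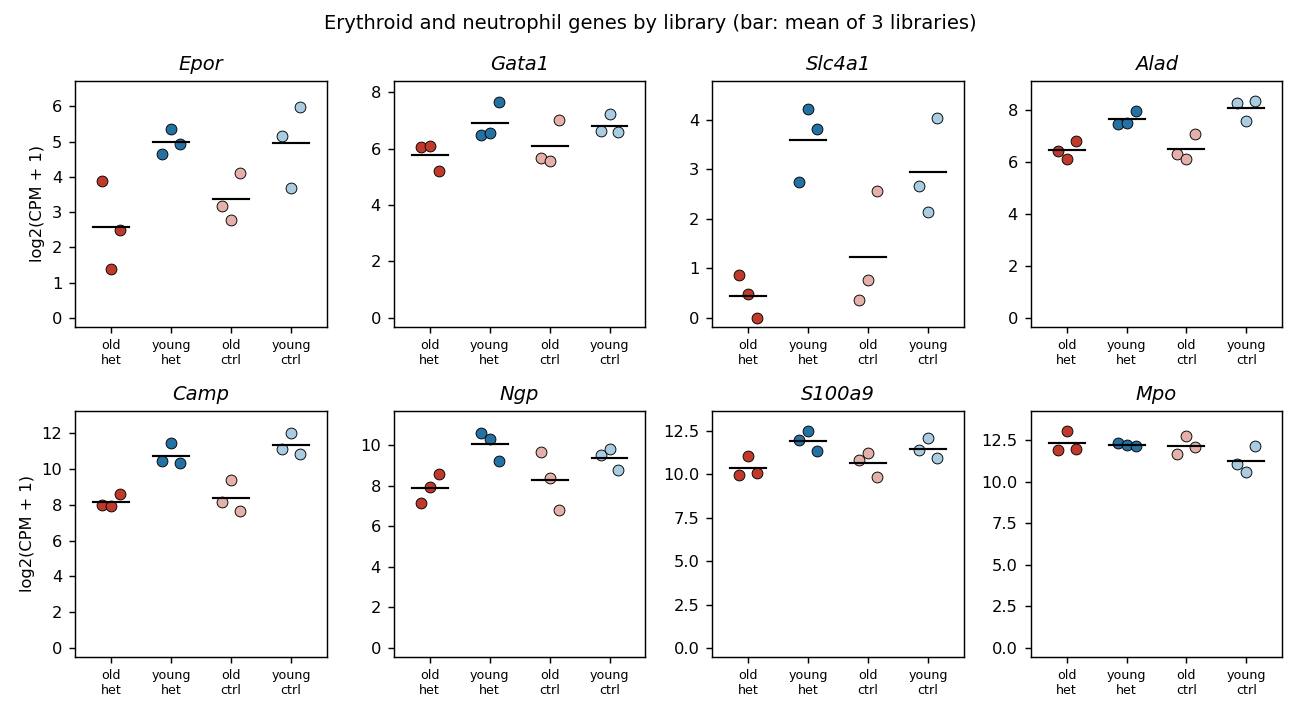
Levels of erythroid genes (Epor, Gata1, Slc4a1), the haem enzyme gene Alad and neutrophil genes (Camp, Ngp, S100a9, Mpo) in every library, as log2(CPM + 1), 1 panel a gene. Points are libraries and bars are means of 3 libraries; Camp lies between 240 and 383 CPM in the old hets and between 1284 and 2797 CPM in the young hets.

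Neutrophil granule genes are made at successive stages of maturation, and 2 lists were read apart. Late granule genes, expressed as promyelocytes become myelocytes and neutrophils, had 14 tested members, of which 5 were lower and none was higher at an unadjusted p under 0.05, against 3.03% and 3.25% of all genes. By sign 11 were lower and 3 higher, with changes from -2.64 to 2.03. Their summed level was 2499 to 5909 CPM in old hets and 6297 to 13274 in young hets. The median level over the members overlapped: as log2(CPM + 1) it was 4.23, 4.96 and 5.24 in old hets 1 to 3. In young hets 1 to 3 it was 5.64, 4.88 and 4.30. The median log2 change of the list was -0.75, and it was -1.74 with Xist as a covariate, -0.999 without old het 2 and -1.18 with old het 1 as the sole old het. Camp, the antimicrobial cathelicidin of the secondary granule, was at 256, 240 and 383 CPM in old hets and 1407, 2797 and 1284 in young hets. Each old het was below each young het, at a mean of 293 ± 78.3 CPM against 1829 ± 841. The log2 change of Camp was -2.64 (SE 0.46, 95% interval -3.60 to -1.68, adjusted p = 0.0656), the second smallest p of all genes. It missed the threshold here and passed it under 11 of 26 other settings, DESeq2 and limma-voom included.

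Ngp, the neutrophilic granule protein, followed at 140, 247 and 374 CPM against 1558, 1260 and 590 (-2.16, SE 0.55, adjusted p = 0.528). S100a9, a subunit of calprotectin, was at 1000, 2102 and 1069 CPM against 4045, 5764 and 2597 (-1.57, SE 0.43, adjusted p = 0.584). Its partner S100a8 overlapped between the groups, at 684, 2984 and 871 CPM against 3718, 2489 and 1362 (-0.74, SE 0.50). Ltf, lactoferrin, overlapped too, at 36.6 ± 16.1 CPM against 115 ± 88.6 (-1.65, SE 0.72), and Cybb, the catalytic chain of the phagocyte NADPH oxidase, did not, at 243 ± 62.4 CPM against 463 ± 172 (-0.93, SE 0.37). Promoters of 14 tested late granule members were at hand, and 7 held TTGCNNAA, as did 3 of 18 erythroid members and 1 of 22 immediate early members.

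Of 28 tested primary granule genes, which are made earlier, 1 was lower and none was higher at an unadjusted p under 0.05, against 3.03% and 3.25% of all genes. The list median was 0.18. That median turned with old het 2: it was -0.36 without this library and -0.51 with old het 1 as the sole old het, and it was -0.05 with Xist as a covariate. The late granule median was below the primary granule median in each of these settings, and the difference between them was not tested. Mpo, myeloperoxidase, was at 3877, 8476 and 4035 CPM in old hets and 5138, 4626 and 4479 in young hets (0.20, SE 0.41, 95% interval -0.65 to 1.06). Elane, neutrophil elastase, was at 216, 944 and 223 CPM against 527, 347 and 318 (0.22, SE 0.47). In both genes old het 2 was the highest library and the other old hets lay under every young het. Without old het 2 the changes turned to -0.26 for Mpo and -0.86 for Elane, and with limma-voom that of Elane was -0.062. The member that was lower was Cebpe, the transcription factor required for secondary granules, at 137, 135 and 208 CPM against 302, 342 and 499 (-1.25, SE 0.42, adjusted p = 0.675). Csf3r, the G-CSF receptor, was at 13.2 ± 1.90 CPM against 32.4 ± 5.996 without overlap (-1.30, SE 0.64).

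Of 18 tested monocyte genes 2 were higher and none was lower at an unadjusted p under 0.05, against 3.25% and 3.03% of all genes, and the median log2 change was 0.67 (0.33 with Xist as a covariate and 0.40 without young het 3). Their summed level overlapped, at 2863 to 3567 CPM in old hets and 2049 to 2886 in young hets, and the median level over the members was highest in young het 1 among the 6 libraries. Irf8, the transcription factor that steers progenitors to monocytes and dendritic cells, was at 598, 608 and 641 CPM in old hets and 444, 152 and 214 in young hets. The old hets were close together and above all young hets (1.19, SE 0.37, 95% interval 0.41 to 1.97, adjusted p = 0.594). Ms4a6c, a membrane protein of monocytes, was at 91.4, 198 and 118 CPM against 87.7, 65.6 and 47.4 (1.03, SE 0.46, adjusted p = 0.755). Csf1r, the M-CSF receptor, was at 17.8, 22 and 17.7 CPM against 7.73, 3.90 and 17.7 (0.97, SE 0.63). The integrin gene Itgam, shared by monocytes and neutrophils, was at 157, 95.4 and 135 CPM against 458, 239 and 144, with an overlap of old het 1 and young het 3 (-1.12, SE 0.50).

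Eosinophil genes had 8 tested members, 7 of them lower by sign, and 5 were lower without overlap, against 6.95% of all genes. Their median was -1.22, which turned to 0.27 with Xist as a covariate, and their summed level was 818 to 1325 CPM in old hets and 2025 to 2989 in young hets. The 2 of them that were lower at an unadjusted p under 0.05, Cebpe and Gata1, also belong to the granule and erythroid lists. B cell genes had 2 of 14 lower and none higher, against 3.03% and 3.25% of all genes (median -0.72, with -1.45 when Xist was a covariate and -0.19 without young het 3). Vpreb1, the surrogate light chain of precursor B cells, was at 19.4, 10.8 and 24.3 CPM against 36, 73 and 88 (-1.87, SE 0.49, adjusted p = 0.568), and Cd24a, also found on erythroid and myeloid precursors, at 310, 147 and 277 CPM against 304, 442 and 568. The share of these cells in the sort was not tested.

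Megakaryocyte genes had 1 of 22 higher and 1 lower, against 3.25% and 3.03% of all genes (median -0.03). Plek, the platelet substrate pleckstrin, was at 84.1, 76.6 and 133 CPM against 49.1, 65.5 and 30.7 (1.02, SE 0.42), and Cd9 at 5.34 ± 1.27 CPM against 17.4 ± 7.40 (-1.68, SE 0.83). Among 15 basophil and mast cell genes and 15 dendritic cell and MHC class II genes none was reached in either direction at an unadjusted p under 0.05.

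Genes of stem and multipotent progenitors had a median of 0.04 over 25 tested members. At an unadjusted p under 0.05, 1 was higher and none lower, against 3.25% and 3.03% of all genes. The groups did not overlap for 5 members, all higher in old hets, against 7.08% of all genes. Ctla2a, a protease inhibitor gene marked in stem cells, was at 12.1, 16.0 and 5.91 CPM against 3.70, 4.20 and 0 (2.13, SE 0.94). Meis1, a cofactor of HOX proteins, was at 53.4, 52.5 and 40.1 CPM against 26.9, 25.7 and 27.4 (0.87, SE 0.61, adjusted p = 0.879), and Runx1, a core regulator of blood formation, at 222, 126 and 195 CPM against 118, 119 and 118 (0.61, SE 0.36). Of 22 genes reported to change in aged stem cells 3 were lower and none was higher (median 0.12), and these were the immediate early genes Zfp36, Ier3 and Jun.

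**Figure D4:**
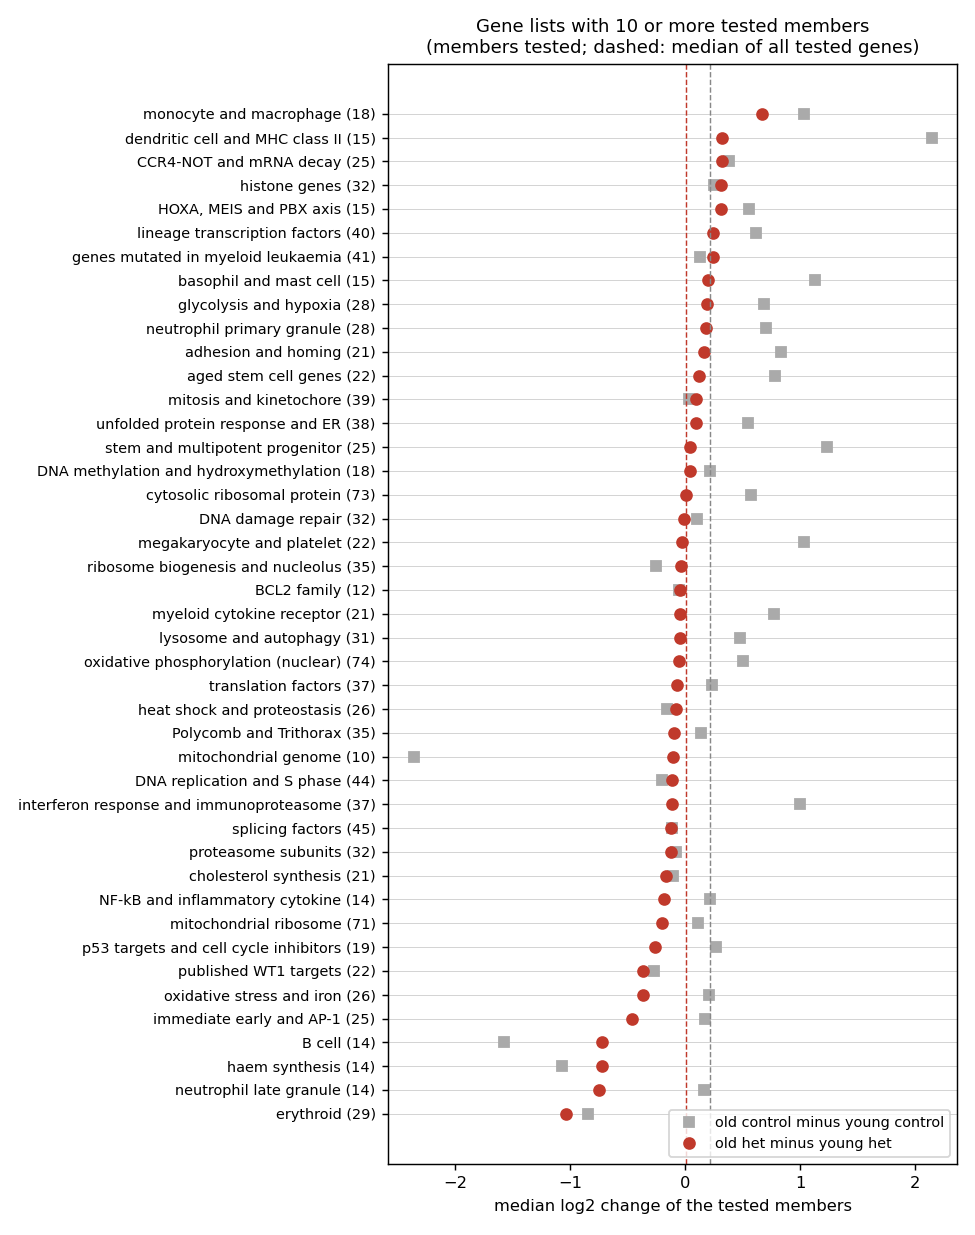
Median log2 change of the tested members of each gene list with 10 or more tested members, in hets (red circles, old minus young) and in controls (grey squares). Numbers in brackets are members tested and dashed lines are medians of all tested genes (0.01 in hets and 0.22 in controls); the erythroid list is lowest in hets at -1.04 and the monocyte list highest at 0.67.

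Genes that are mutated in myeloid leukaemia had 3 of 41 tested members higher and none lower at an unadjusted p under 0.05, against 3.25% and 3.03% of all genes (median 0.24, and 0.06 with Xist as a covariate). Trp53, the tumour suppressor p53, was at 302, 294 and 347 CPM in old hets and 197, 125 and 105 in young hets (1.15, SE 0.37, 95% interval 0.38 to 1.91, adjusted p = 0.615). Cux1, a homeobox factor on a region often lost in myeloid disease, was at 112, 95 and 90.6 CPM against 51.4, 60.1 and 39.4 (0.98, SE 0.35, adjusted p = 0.675). Asxl2, a Polycomb-associated gene, was at 264, 142 and 244 CPM against 149, 129 and 101 and overlapped (0.78, SE 0.33). Genes of the p53 response did not share that order: 1 of 19 tested was lower and 1 higher, and the one higher was Trp53 itself. Bax, a p53 target that permeabilises mitochondria in apoptosis, was at 88.1, 66.5 and 99.2 CPM against 109, 188 and 313 (-1.27, SE 0.37, adjusted p = 0.584).

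DNA methylation genes bear on Wt1 because its protein binds the Tet2 and Tet3 enzymes. Of 18 tested genes none was reached at an unadjusted p under 0.05 (median 0.04), and 3 did not overlap, all higher in old hets, against 7.08% of all genes. Dnmt3a, a de novo DNA methyltransferase, was at 136, 85 and 79.5 CPM against 50.4, 69.1 and 57.8 (0.76, 95% interval -0.03 to 1.54). Tet3 was at 148 ± 52.5 CPM against 105 ± 36.8 (0.50, 95% interval -0.24 to 1.24). Of 22 tested genes reported as targets of WT1, 2 were lower and none was higher, against 3.03% and 3.25% of all genes. These were Junb and Cebpe, both given above (list median -0.37, and -0.05 without young het 2). The intervals of Dnmt3a and Tet3 reach past 1 log2 unit, so these values do not show that the levels were alike.

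Histone genes had 6 of 32 tested members higher in old hets and 1 lower at an unadjusted p under 0.05, against 3.25% and 3.03% of all genes (median 0.31). Hist1h2bk was at 37.2, 57.3 and 28.2 CPM against 1.34, 20.1 and 4.94 (2.19, SE 0.74), and Hist1h2ae at 23.5, 34.5 and 20.4 CPM against 11.4, 2.70 and 3.92 (2.15, SE 0.76). The linker histone gene Hist1h1a was at 21.8, 13.6 and 13.1 CPM against 0.672, 4.05 and 4.94 (2.27, SE 0.81). Hist2h2ac had the largest estimate at 13.3 ± 4.82 CPM against 1.11 ± 1.001 (3.49, SE 1.28). All 4 had an adjusted p of 0.675 or above. Most histone mRNAs carry no poly(A) tail, which limits what a 3' mRNA kit reads of them, and copies of these genes resemble each other. H2afx, a variant whose phosphorylated form marks DNA breaks and whose mRNA can be polyadenylated, was lower at 713, 617 and 739 CPM against 820, 1595 and 1323 (-0.85, SE 0.38).

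In the cell cycle lists the medians were -0.11 for replication and 0.09 for mitosis genes. Of 44 replication genes 3 were lower and none was higher at an unadjusted p under 0.05, against 3.03% and 3.25% of all genes, among them the sliding clamp Pcna at 81.7, 106 and 105 CPM against 150, 183 and 195 (-0.85, SE 0.37) and the clamp loader Rfc2 at 787 ± 86.5 CPM against 1320 ± 399 (-0.75, SE 0.33). Of 39 mitosis genes 4 were lower and 2 higher, and the NDC80 complex held one of each: Nuf2 was at 76.5 ± 28.3 CPM against 134 ± 21.6 (-0.82, SE 0.36) and Ndc80 at 42.3 ± 16.8 CPM against 21.3 ± 1.92 (0.98, SE 0.45). Prkdc, the kinase of DNA end joining, was at 40.4, 34.5 and 26.3 CPM against 7.73, 14.7 and 7.16 (1.76, SE 0.63, adjusted p = 0.675).

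In protein synthesis and folding, single members stood apart from lists whose medians lay between -0.20 and 0.09. Eif3l, a subunit of the initiation factor eIF3, was at 240, 174 and 315 CPM against 486, 627 and 636 (-1.26, SE 0.36, adjusted p = 0.584). Atf4, the transcription factor of the integrated stress response, overlapped at 1106, 831 and 911 CPM against 1084, 2525 and 3863 (-1.39, SE 0.42). The ER genes Pdia3, a disulfide isomerase, and Tram1, of the translocon, were at 899, 773 and 561 CPM against 504, 294 and 248 (1.10, SE 0.39) and at 98.9 ± 21.8 CPM against 49.8 ± 5.01 (0.99, SE 0.35). The splicing regulator Tra2a was at 147, 137 and 161 CPM against 209, 349 and 431 (-1.15, SE 0.33). Of 73 cytosolic ribosomal protein genes 1 was higher and 1 lower (median 0.01), and of 71 mitochondrial ribosome genes 2 were higher and 6 lower (median -0.20), Mrpl41 first at 62.3, 72.5 and 75.5 CPM against 125, 192 and 193 (-1.28, SE 0.37). These counts are at an unadjusted p under 0.05, where 3.25% of all genes were higher and 3.03% lower.

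Respiration was even by list, with 2 of 74 nuclear oxidative phosphorylation genes higher and 1 lower (median -0.06). At an unadjusted p under 0.05, as here, 3.25% of all genes were higher and 3.03% lower. Sdha, the catalytic chain of complex II, was at 163, 190 and 150 CPM against 72.9, 107 and 76.5 (0.97, SE 0.33), and Ndufb3, of complex I, at 184, 98.2 and 134 CPM against 222, 357 and 269 (-1.03, SE 0.42). None of the 10 tested genes of the mitochondrial genome was reached at an unadjusted p under 0.05 (median -0.11). Mitochondrial rRNA took 3.64% ± 1.94 of counts in old hets and 3.17% ± 0.294 in young hets (exact two-sided permutation test, p = 0.8, where the smallest possible is 0.1). In the interferon list 2 of 37 genes were lower and none higher (median -0.11), the peptide transporter Tap1 among them at 827, 310 and 689 CPM against 793, 1630 and 1630 (-1.15, SE 0.39).

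The 10 smallest p-values included, besides Fos and Camp, 4 Y-linked genes and the 4 that follow. Cd300lf, an inhibitory receptor of myeloid cells, was at 45.3, 20.8 and 33.5 CPM in old hets and 104, 203 and 136 in young hets (-2.17, SE 0.45, adjusted p = 0.167). Glrx, glutaredoxin, which reverses glutathionylation of proteins, was at 43.7, 53.7 and 50.6 CPM against 145, 470 and 217 (-2.49, SE 0.51, adjusted p = 0.167). Both were called by DESeq2, as was the next gene. Gng11, a G protein gamma subunit, was higher in each old het than in any young het, at 49.3, 30.9 and 47.9 CPM against 7.39, 14.3 and 7.5 (2.12, SE 0.47, adjusted p = 0.267). The minor spliceosome RNA U4atac was at 579, 443 and 318 CPM against 152, 40.1 and 26.6 (log2 change 2.62, SE 0.60, adjusted p = 0.312), and as a small RNA it is read incompletely by a 3' mRNA kit.

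The Y-linked genes were Uty, Ddx3y, Eif2s3y and Kdm5d. None was counted in old het 1 or in any young het. Old hets 2 and 3 had 135 and 155 CPM of Ddx3y and 54.1 and 92.6 CPM of Uty. Against a floor of 3 counts over the young group, the old group was at least 499-fold higher for Ddx3y, 253-fold for Uty, 98.1-fold for Kdm5d and 80.3-fold for Eif2s3y. Their adjusted p lay between 0.0662 and 0.169, with values of old het 1 at the level of the young hets. The labels do not give sex, and its part in the other differences was not tested beyond the 2 settings above.

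The control libraries share no sample with this comparison and give the same contrast in Wt1+/+ progenitors. Of the 321 genes lower in old hets at an unadjusted p under 0.05, 259 were also lower in old than in young controls by sign (80.7%), against 48.1% of all genes with a negative sign in hets. Of the 345 higher genes 235 were higher in controls (68.1%), against 63.7% of all genes with a positive sign. Across the 10604 genes the changes in hets and controls correlated at Pearson's r = 0.20, given as a description, since genes are not independent replicates. By edgeR 740 genes were called in controls (6.98%), and 3311 did not overlap there (31.2%). Of these calls, 76 were among the 321 and 26 among the 345 with the same direction, and 2 and 4 with the opposite one.

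**Figure D5:**
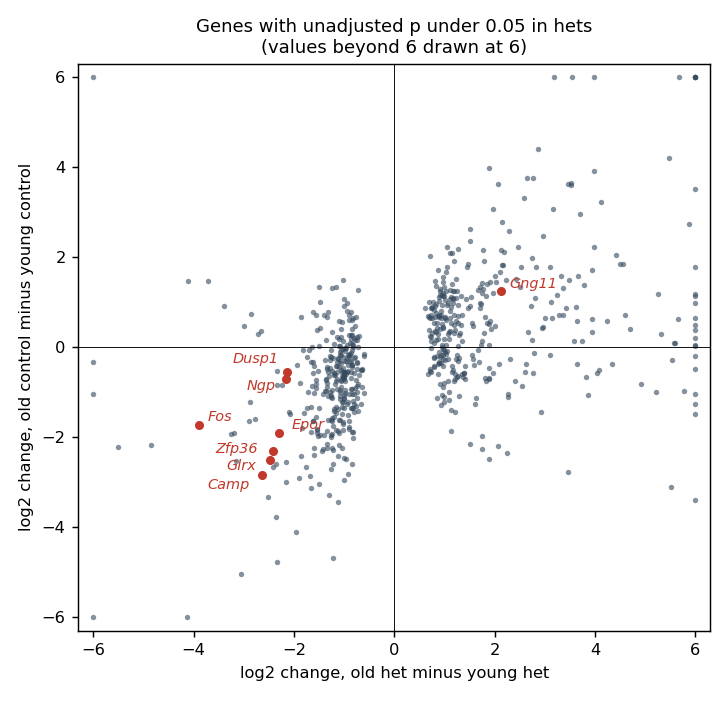
Change between old and young progenitors in hets (x axis, log2) and in controls (y axis, log2), for the genes at an unadjusted p under 0.05 in hets. Each point is a gene, values beyond 6 are drawn at 6, and red points are 8 named genes; Camp lies at -2.64 in hets and -2.84 in controls, and most points on the left are below 0 in controls as well.

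Among genes named here, Camp was called in controls at -2.84 (SE 0.46, adjusted p = 0.00148), Cd300lf at -2.54 (SE 0.45, adjusted p = 0.00229) and Glrx at -2.49 (SE 0.51, adjusted p = 0.00619). Zfp36 was at -2.30 (adjusted p = 0.0278), Alad at -1.55 (adjusted p = 0.0115), Vpreb1 at -2.43 (adjusted p = 0.00585) and Irf8 at 1.25 (adjusted p = 0.0492). The AP-1 subunit Jund was called too (-2.24, adjusted p = 0.00559). Fos was lower in old controls by less, at 22.4, 13 and 12.4 CPM against 33.4, 37.4 and 87.9 in young controls (-1.73, SE 0.51, adjusted p = 0.0462). Young control 3, at 87.9 CPM, was the highest of all 12 libraries for Fos, and also for Fosb (51.2 CPM), Zfp36 (1541), Jund (433) and Klf2 (75.7). It was also the one control with Xist, at 1577 CPM against at most 3.04 in the other controls, and what this library contributes was tested by leaving it out: Fos in controls was then -1.19 (adjusted p = 0.172). The change of Fos in hets minus that in controls was -2.18 (SE 0.75), and it did not pass the test of that difference (adjusted p = 0.215). Dusp1 was at -0.55 in controls (adjusted p = 0.613), and its difference did not pass either (adjusted p = 0.435).

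By list, the erythroid median was -0.85 in controls beside -1.04 in hets, and the haem median -1.08 beside -0.72. Monocyte genes had medians of 1.04 and 0.67. Late granule genes had 0.17 in controls and -0.75 in hets, and immediate early genes 0.18 and -0.46, but the difference between these medians was not tested. In controls, MHC class II genes had a median of 2.15 and mitochondrial genome genes of -2.36, where hets had 0.32 and -0.11. The young controls differed in composition from every other library. Small RNA took 0.366%, 0.688% and 0.793% of counts in young controls 1 to 3 and 0.116% to 0.271% elsewhere. Mitochondrial mRNA took 5.28%, 5.58% and 3.07% there and 0.529% to 2.07% elsewhere. Young control 2 was the shallowest library, at 645460 counts. Whether this bears on the changes in controls was not tested.

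The change between old and young progenitors differed between hets and controls for 9 of 10604 genes by the interaction test in edgeR (0.0849%), 8 with a more positive change in hets and 1 with a more negative one. They were Slbp, U3, mt-Tp, Cnot3, Cebpd, mt-Tq, Snord49b, U1 and Prkacb, and none of them passed in hets alone. Their values stand among the results for a closer look. This count depended on single libraries: it was 294 without old het 2 and 143 without young control 3, and 2 to 18 without any other library. None of the immediate early, erythroid, granule or monocyte genes given above was among the 9.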

How the data were processed

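RNA of sorted myeloid progenitors was measured with a Lexogen 3' mRNA-seq kit, per the labels' protocols. The values used are raw counts per gene symbol in a single deposited table of the 12 libraries, and they are not normalized. STAR 2.4, HTSeq 0.6.1, DESeq2 and build mm9 are named in the submitters' processing notes without their roles; annotation, strand setting and molecular identifiers are not stated there, so overlapping, antisense and near-identical genes cannot be told apart, and the counting intervals of 2 ratios (Fosb, Slc4a1) and the floors cover counting error only. The 95% intervals of log2 changes come from the edgeR fit and include the spread between libraries.

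Libraries were grouped by the labels and numbered 1 to 3 within a group in accession order, which pairs no samples. Total counts ran from 1264603 to 6794892 in the 6 het libraries. No 2 replicates agreed within sampling noise; the nearest, old hets 1 and 3, had a chi-square per degree of freedom of 5.22. Counts were fitted with edgeR 4.0.16 in R 4.3.3 (TMM scaling, filterByExpr with a minimum count of 10 and total of 15, quasi-likelihood F test). The 4 groups entered 1 fit, with a biological coefficient of variation of 0.535, and p-values were adjusted by Benjamini-Hochberg at 0.05. The SE is the absolute log2 change divided by the square root of F. CPM (counts scaled to a common total) is relative to the TMM-scaled total of the tested genes; for the gate markers it is over all genes.

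Alternatives were DESeq2 1.42.0, limma-voom (limma 3.58.1), other scaling, filters, covariates and sets of libraries, and thinning to the shallowest library in 5 draws; those chosen after seeing the data left out single control libraries, or gave controls and the difference by other tools. Each tool was also tested on simulated data in which 200 of 10604 genes were changed. Named genes are Wt1, genes past the threshold (Fos), the 10 smallest p-values, the first 2 members by p of each list (up to 6 where one passed), the genes of the interaction and the 5 with the largest share of counts, not all of them printed; further members of a list were chosen after their values were seen, and some members are not reported here. The members and the lists were chosen with earlier results of these data known, and no list was given a set test. Promoters came from RefSeq (GRCm38.p6) by symbol, and 7339 of 10604 tested genes had an entry.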

Additional observations from a re-analysis of the deposited data

Results flagged for a closer look

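A set of 9 genes had a change between old and young progenitors that differed between hets and controls by the interaction test in edgeR. The value given is the log2 change in hets minus that in controls, and all 9 changed in controls at an adjusted p of 0.00229 or less, while their adjusted p in hets was 0.805 or more. Slbp, the histone mRNA stem-loop binding protein, had a difference of 4.68 (adjusted p = 0.00377), with 0.48 in hets and -4.19 in controls. Cnot3, a subunit of the CCR4-NOT deadenylase, had 3.09 (adjusted p = 0.0228), with 0.59 and -2.50. Prkacb, of protein kinase A, had 2.84 (adjusted p = 0.0398), with 0.63 and -2.22.

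Another 5 were small or mitochondrial RNAs, which a 3' mRNA kit reads incompletely. U3 had a difference of 3.95 (adjusted p = 0.00380), U1 of 3.13 (0.0398), Snord49b of 3.68 (0.0228), mt-Tq of 3.91 (0.0228) and mt-Tp of 2.96 (0.0228). In controls they lay between -3.94 (U1) and -2.54 (mt-Tp), and in hets between -0.81 (U1) and 0.97 (mt-Tq). U3 stood at 446, 583 and 554 CPM in the 3 young controls and at 35.0 to 99.8 CPM in the other 9 libraries. Small RNA as a class, too, took a larger share of counts in each young control than in any other library. Mitochondrial tRNA took 0.0839% to 0.144% in the young controls and 0.0168% to 0.0516% in the other 9.

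Cebpd, a C/EBP factor of granulocyte development, was the one with a negative difference, -10.22 (adjusted p = 0.0228). It had 0 counts in all 3 young controls and 16.9, 36.3 and 20.8 CPM in old controls, at least 26.4-fold higher when the young group is set to a floor of 3 counts in all. In hets it was at 7.28, 26.9 and 7.88 CPM in the old and 19.5, 31.1 and 24.5 CPM in the young libraries (-0.81, SE 0.67, adjusted p = 0.906). The causes of these differences were not tested.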

How the results depend on the processing

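Of the 86 genes named besides Fos, 83 kept 1 sign under every setting that gave them a change other than 0 and an adjusted p. Of the 86, 13 passed the threshold under at least 1 setting. The settings share most libraries and many of these genes were chosen by their values in them, so a kept sign is no separate support. The same share over all tested genes is not given. The number of genes called between old and young hets, 1 by edgeR, was 15 with DESeq2 and 22 with no filter. It was 2 with the compared groups alone, with mitochondrial rRNA as a covariate and without genes of the mitochondrial, small RNA, sex-linked or predicted classes, and 8 without old control 1 and young control 3. It was 0 with Xist as a covariate and with old het 1 as the sole old het. Leaving out 1 library at a time gave 0 to 7 calls: 0 without old het 2, old het 3, young het 2 or young het 3, 5 without old het 1, 4 without young het 1 and 7 without young control 3. Fos was -3.82 with limma-voom, -3.36 with Xist as a covariate and -4.56 with old het 1 as the sole old het, and lost its call in each. It ranged from -4.18 to -3.74 without single libraries, and was -3.33 and -3.58 in the 2 of 5 thinned draws in which the call was lost. In controls Fos missed the threshold at -1.55 with limma-voom, -1.47 without old control 1 and young control 3, and -1.73 and -1.67 in 2 thinned draws, and ranged from -2.06 to -1.19 without single libraries. The 9 genes that differed between hets and controls became 296 with DESeq2, 2 with limma-voom, 59 without old control 1 and young control 3, and 2 to 294 without single libraries. Signs turned for Mpo with old het 1 as the sole old het (-0.29) and in the range without single libraries, -0.26 to 0.36. They turned for Elane with limma-voom (-0.062), with old het 1 as the sole old het (-0.87) and in the range without single libraries, -0.86 to 0.51, and for Kdm5d with Xist as a covariate (-0.11). The lowest ends for Mpo and Elane are those without old het 2. Median changes of the immediate early, erythroid, haem and monocyte lists moved by less than the spread between libraries under each setting tried, thinning included; that of the late granule list went from -0.75 to -1.74 with Xist as a covariate. The primary granule median, 0.18, turned to -0.36 without old het 2, -0.51 with old het 1 as the sole old het and -0.05 with Xist as a covariate, and the eosinophil median, -1.22, turned to 0.27 with Xist as a covariate. The cause of these shifts was not tested, except that a sole old het leaves 1 library in its group, whose spread is taken from the other groups. No paired analysis was possible because replicate numbers were given in accession order and the labels pair no samples. Depth limits the old hets first, where 3 counts stand for up to 2.37 CPM.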
